A study of Rattus norvegicus with 24 samples.

Results

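The 10 circadian clock genes examined in rat heart muscle were Bmal1 (also called Arntl), Clock, Npas2, Per1, Per2, Per3, Nr1d1, Nr1d2, Dbp and Tef. Their probes were found by matching the accession of each array probe to the transcripts of the rat RefSeq gene table, which gave 17 probes for the 10 genes, of the 12894 named genes that could be tested. All 17 probes passed the filter on dim probes, and all but 1 were well above background on all 24 arrays. The exception was the dimmer Clock probe, which was well above background on 8 of 24 arrays, including all 4 sham arrays. It passed the filter only through the sham group.

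Single-colour Agilent arrays measured total RNA of myocardium from 24 rats, 4 per group with 2 males and 2 females each. The Jiaji, Neiguan, Yanglingquan and Quchi groups had needling at the acupoint of that name for 7 days and then the injury. The IRI group had the injury alone: a ligated left anterior descending coronary artery, as a model of ischaemia and reperfusion (IRI). The sham group is not among those listed as ligated. The sources used here give neither strain, age and time of reperfusion nor the hour at which hearts were collected. Arrays of a group were counted as different rats, following the numbering in the labels, and p-values cover the spread between them.

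The circadian clock is a loop of transcription factors that most cells carry, heart muscle cells included. BMAL1 pairs with CLOCK or with NPAS2 and switches on genes that hold an E-box, among them the Per genes, whose proteins feed back on the pair, and the Nr1d genes, whose REV-ERB proteins repress Bmal1 through RORE sites. DBP and TEF are outputs of the loop that act on D-boxes, and in a running clock Bmal1 transcripts peak at about the opposite phase to those of Dbp, the Per genes and the Nr1d genes.

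Promoter windows upstream of the start site are shown for the 4 members in which such a site was found by its letters, to show the kinds of site named above as they stand in the rat sequence. Both strands of the 250 bases before each start were searched in RefSeq sequence of the GRCr8 build, where the 10 members had 12 start sites among 33469 entries. Bmal1 held the RORE core TAGGTCA at chr1:176766272-176766327 (plus strand), its first base 16 bases before the start, as did 2.26% of all entries. Tef held the E-box CACGTG at chr7:115206589-115206674 (plus strand), 198 bases before the start. Of all entries 5.59% held that E-box. Per2 held the D-box TTATGTAA and the E-box variant CACGTT at chr9:99497010-99497225 (minus strand), 192 and 62 bases before the start, letters found in 0.828% and 4.07% of entries. Nr1d1 has more than 1 start. One held CACGTT on the opposite strand at chr10:84231941-84232026 (minus strand), and another held CACGTG at chr10:84229600-84229685 (minus strand). The CRE letters TGACGTCA were in 1.59% of entries and in none of these members. Capitals mark the matched letters, which are a description of sequence and not evidence of binding.
Bmal1: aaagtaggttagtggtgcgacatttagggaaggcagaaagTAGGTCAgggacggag
Tef: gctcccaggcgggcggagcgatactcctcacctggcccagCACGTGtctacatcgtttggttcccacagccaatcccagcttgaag
Per2: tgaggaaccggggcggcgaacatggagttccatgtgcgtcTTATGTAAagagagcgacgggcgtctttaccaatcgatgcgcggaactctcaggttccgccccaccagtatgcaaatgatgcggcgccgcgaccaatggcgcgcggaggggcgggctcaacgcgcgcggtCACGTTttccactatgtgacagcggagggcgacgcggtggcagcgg
Nr1d1, CACGTT start: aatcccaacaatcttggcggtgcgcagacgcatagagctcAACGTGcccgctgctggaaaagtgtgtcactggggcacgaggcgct
Nr1d1, CACGTG start: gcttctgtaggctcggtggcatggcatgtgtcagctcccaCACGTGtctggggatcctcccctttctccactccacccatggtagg

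A level is the log2 processed signal of a probe after the 75th percentile of its own array was subtracted, and 0 stands for that percentile. A level belongs to its probe, and levels of different genes are not set against each other. On average 78.5% ± 2.11 (SD, n = 4) of spots were well above background on Yanglingquan arrays, against group means of 84.0% to 87.8% in the other 5 groups. The 10 cardiomyocyte markers were all measured, and their summed level on the log2 scale lay between 9.99 and 10.3 in Jiaji, 10.01 and 10.3 in Neiguan, 10.2 and 10.8 in Yanglingquan and 9.89 and 10.5 in Quchi hearts, against 9.79 to 9.96 in IRI and 9.82 to 10.2 in sham hearts. Of the 4 adipocyte markers 2 were tested, and their sum was -4.66 to -3.61 in Jiaji and -6.96 to -5.66 in Yanglingquan hearts, against -5.70 to -5.26 in IRI hearts. The 5 of 6 neutrophil markers that were tested summed to a median of 1.68 in IRI hearts and 0.28 in sham hearts. The part of these cells in the clock gene results was not tested, and fewer cells of a type cannot be told apart from less RNA per cell. The sham and IRI arrays were scanned on 1 day, 15 arrays of the acupoint groups on another and Quchi replicate 1 on a day of its own. Acupoint group and scan day therefore cannot be told apart in any comparison with IRI or sham, while IRI against sham and 3 of the 6 pairs of acupoints, those without Quchi, lie within 1 day. By their scan times the arrays fall into 7 scans. Jiaji, Neiguan, Yanglingquan, IRI and sham have 1 scan each, so that scan and group cannot be told apart, and Quchi spans 2, with replicate 1 alone in one of them.

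The injury alone gave no call among the clock genes. In IRI against sham 0 of 10 members passed an adjusted p of 0.05 (limma over all genes, Benjamini-Hochberg), against 5.75% of all genes tested. At an unadjusted p under 0.05 there were 3, Per1 and Per3 on the higher side and Tef on the lower. The count was also 0 under every normalization, filter and left-out array tried, and 1 with the scan as a random block (Tef, -0.58, adjusted p = 0.0413).

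Against IRI each acupoint group had between 1 and 4 called clock genes. The activator Npas2 was called lower in 3 of the 4 groups, the activator Bmal1 called lower in 2 and the repressor Per3 called higher in 3. The Npas2 and Per3 calls come from 1 probe each, which the other probes of the gene did not follow. Neiguan against IRI gave 3 calls (Bmal1 and Npas2 lower, Per3 higher), where 5.63% of all genes were called. Yanglingquan against IRI gave 4 (Bmal1 and Npas2 lower, Per3 and Tef higher), against 12.1% of all genes. Jiaji against IRI gave 2 (Per1 and Per3 higher), against 10.2%, and Quchi against IRI gave 1 (Npas2 lower), against 3.44%. These comparisons share the 4 IRI arrays, so an IRI array that is high or low enters all of them. Clock, Per2, Nr1d1, Nr1d2 and Dbp passed in none of the 4.

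**Figure D1:**
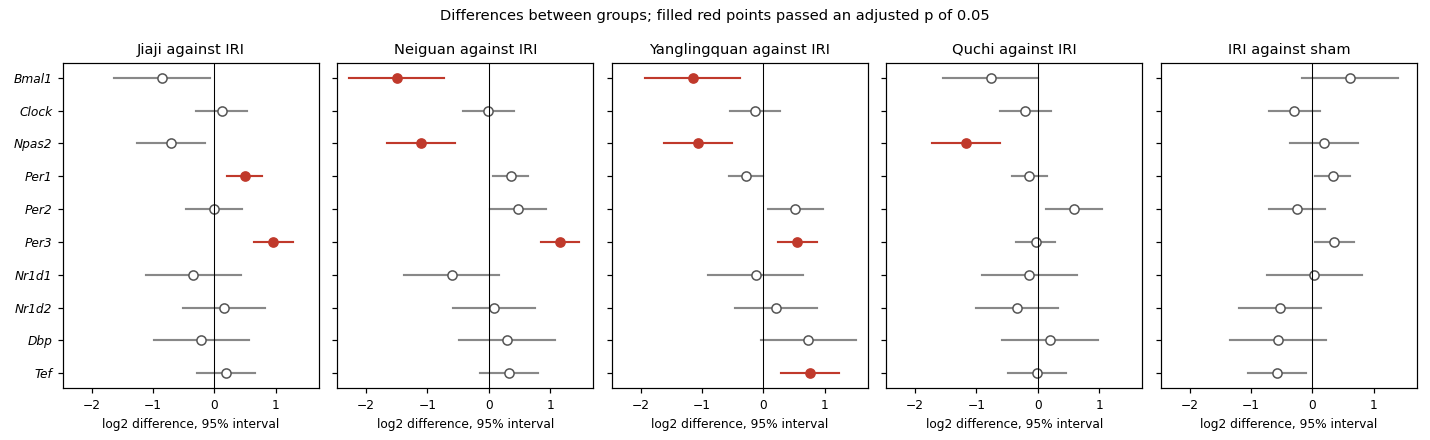
Log2 differences of the 10 clock genes with 95% intervals, in 4 panels for each acupoint group minus IRI and 1 for IRI minus sham. Filled red points passed an adjusted p of 0.05: Per3 is filled in the Jiaji, Neiguan and Yanglingquan panels, Npas2 in the Neiguan, Yanglingquan and Quchi panels, and none is filled for IRI against sham.

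Against sham the called clock genes were Per1, Per3 and Npas2. Jiaji against sham gave 2 (Per1 and Per3 higher), with 24% of all genes called. Neiguan gave 3 (Per1 and Per3 higher, Npas2 lower), with 19.9% of all genes called. Yanglingquan gave 2 (Per3 higher, Npas2 lower) with 13%, and Quchi gave 1 (Npas2 lower) with 21.1%. These comparisons share the 4 sham arrays. As background for the overlaps given below, the groups did not overlap, in either direction, in 26.5% of all genes in Jiaji, 27.1% in Neiguan, 16.5% in Yanglingquan and 20.9% in Quchi against sham, and in 15.9%, 15.3%, 15.6% and 9.21% against IRI in the same order. The share was 19.2% in Jiaji and 19.7% in Neiguan against Quchi.

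Bmal1, the activator without which the loop stops in mice, stood at -0.55, 0.97, -1.54 and -0.99 in Jiaji hearts and at -1.29, -1.14, -0.98 and -1.29 in Neiguan hearts. Yanglingquan hearts had -1.08, -1.48, -0.24 and -0.49, and Quchi hearts -0.71, -0.65, 0.02 and -0.43. The level was 0.25, 0.85, 0.68 and -0.47 in IRI hearts and 0.15, -0.92, 0.23 and -0.62 in sham hearts. All 4 Neiguan hearts lay below every IRI and every sham heart, and they were close to each other, while the Jiaji hearts spanned the whole range of the study, with the highest of the 24 hearts in replicate 2 and the lowest in replicate 3. Bmal1 averaged -1.17 ± 0.15 in Neiguan and 0.33 ± 0.59 in IRI (SD, n = 4 each), a difference of -1.50 ± 0.37 (SE), which is 0.353 times the IRI signal (adjusted p = 0.0183). In Yanglingquan it averaged -0.82 ± 0.56 (SD, n = 4), -1.15 ± 0.37 against IRI (adjusted p = 0.0487), with overlap of 1 IRI heart. The Jiaji and Quchi differences from IRI, -0.85 ± 0.37 and -0.77 ± 0.37, missed the threshold (adjusted p = 0.167 and 0.268). Against sham the Neiguan difference of -0.88 ± 0.37 did not pass either (adjusted p = 0.0971).

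The second Bmal1 probe (A_64_P117345) gave nearly the same picture as the one used (A_44_P214873). After group means were taken away, the pair correlated with r = 0.98 over the 24 arrays (rho = 0.97, adjusted permutation p = 4.50e-05 over 9 pairs of probes, r = 0.96 without the 2 arrays farthest out). Its differences from IRI were -0.68 in Jiaji, -1.42 in Neiguan, -1.16 in Yanglingquan and -0.95 in Quchi, and when every probe was tested it passed in Neiguan and Yanglingquan (adjusted p = 0.0112 and 0.0257). The Neiguan call at the used probe ended without IRI replicate 1 or 2 or without Neiguan replicate 4 (adjusted p = 0.0547, 0.0697 and 0.0722), and over all 36 alternatives its difference lay between -1.70 and -1.36 with adjusted p from 0.00174 to 0.0722. The Yanglingquan call was lost in 27 of 36 alternatives (adjusted p from 0.00818 to 0.135). Without Jiaji replicate 2 the Jiaji difference stood at -1.30 and passed (adjusted p = 0.0138).

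Clock, whose protein partners BMAL1, was called in no comparison at its brighter probe (A_64_P147863). Its level was lowest in Quchi, with a mean of -4.00 ± 0.34, and highest in sham, with -3.51 ± 0.14 (SD, n = 4 each). The 4 acupoint groups differed from IRI, which averaged -3.80 ± 0.43, by -0.20 to 0.12, each with an SE of 0.20. The Quchi minus sham difference of -0.49 ± 0.20 missed the threshold (adjusted p = 0.0806) and passed with quantile normalization (-0.62, adjusted p = 0.0304) and in 5 other alternatives. The dimmer Clock probe (A_64_P075337) was well above background on 4 of 4 sham arrays and on no Neiguan or Yanglingquan array, and on 1 Quchi, 2 Jiaji and 1 IRI array. It averaged -7.08 ± 0.58 in Neiguan, -7.09 ± 0.59 in Yanglingquan and -6.82 ± 0.77 in Quchi hearts, against -5.67 ± 0.51 in sham hearts (SD, n = 4 each). All Neiguan and Yanglingquan hearts were below all sham hearts, and 1 Quchi heart was within them. When every probe was tested it passed as lower than in sham in Neiguan, Yanglingquan and Quchi (adjusted p = 0.0107, 0.0143 and 0.0314). This probe passed the filter only through the sham group, however, so a lower level than in sham was favoured in advance. Its p-values and folds against sham are a description and no support for a difference. Where a group had this probe not well above background on any array, its level there was set no lower than the dimmest signal well above background on each array, which makes sham at least 1.35-fold higher than Neiguan and at least 1.06-fold higher than Yanglingquan. With the mean of both Clock probes, Clock was called lower than in sham in the same 3 groups (-0.85, -0.92 and -0.82, adjusted p = 0.0238, 0.0220 and 0.0269) and in the F test over all groups (adjusted p = 0.0286). That mean contains the dimmer probe, so the same limit applies to these calls, and the brighter probe alone gave none. Within groups the probes correlated with r = 0.51 (rho = 0.51, adjusted permutation p = 0.0379, r = 0.47 without the 2 arrays farthest out).

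Npas2, which can stand in for CLOCK as partner of BMAL1, was called lower than in IRI in 3 acupoint groups at its brighter probe (A_44_P945456). The level was -2.18, -2.19, -3.01 and -3.10 in Jiaji hearts and -3.13, -2.89, -2.93 and -3.12 in Neiguan hearts. Yanglingquan hearts had -3.53, -3.54, -2.08 and -2.75, and Quchi hearts -3.56, -3.20, -2.90 and -2.64. IRI hearts had -2.02, -1.99, -1.68 and -1.94, and sham hearts -1.87, -2.47, -1.58 and -2.46. Every heart of the 4 acupoint groups lay below every IRI heart, and every Neiguan and Quchi heart below every sham heart as well. The differences from IRI were -1.11 ± 0.27 in Neiguan (0.464 times, adjusted p = 0.0139), -1.07 ± 0.27 in Yanglingquan (0.477 times, adjusted p = 0.0118) and -1.16 ± 0.27 in Quchi (0.446 times, adjusted p = 0.0180). Jiaji, at -0.71 ± 0.27, did not pass (adjusted p = 0.0996) but did in 6 of 36 alternatives. Among these were quantile normalization, median scaling, normexp background correction and the authors' values (-0.92 to -0.70, adjusted p from 0.0209 to 0.0246). Npas2 was also lower than in sham, by -0.92 ± 0.27 in Neiguan (adjusted p = 0.0186), -0.88 ± 0.27 in Yanglingquan (adjusted p = 0.0339) and -0.98 ± 0.27 in Quchi (adjusted p = 0.0131). The Jiaji difference from sham was not called in the main fit. It passed as lower under the same 4 scaling and background settings (-0.80 to -0.53, adjusted p from 0.0150 to 0.0463).

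The dimmer Npas2 probe (A_64_P024222) did not follow. It stood at -3.21, -3.49, -3.12 and -3.29 in Jiaji hearts and at -3.13, -3.60, -3.42 and -3.15 in Neiguan hearts, against -3.90, -4.10, -3.58 and -3.66 in IRI hearts. Thus all Jiaji hearts were above all IRI hearts there, with a difference of 0.53 ± 0.19, and Neiguan, Yanglingquan and Quchi differed from IRI by 0.48, -0.03 and 0.13. None passed when every probe was tested (adjusted p = 0.0721 in Jiaji, 0.132 in Neiguan, 0.942 in Yanglingquan and 0.735 in Quchi). Within groups the Npas2 probes did not move together (r = -0.26, rho = -0.11, adjusted permutation p = 0.470, r = 0.05 without the 2 arrays farthest out). With the mean of both probes as the value of the gene, only the Yanglingquan call against IRI was kept, and Neiguan and Quchi stood at -0.31 and -0.52 (adjusted p = 0.270 and 0.0715). At this probe Npas2 was higher than in sham, the opposite direction to the brighter probe, by 0.79 ± 0.19 in Jiaji and 0.74 ± 0.19 in Neiguan (adjusted p = 0.00326 and 0.00650, every probe tested), with no overlap between hearts. Sham hearts had -3.96, -3.83, -4.25 and -4.24 there. The Yanglingquan and Quchi differences from sham, 0.23 and 0.39, did not pass (adjusted p = 0.423 and 0.130). The Npas2 calls against IRI thus come from 1 probe. At that probe the Neiguan call against IRI also ended without Neiguan replicate 4 (-1.01, adjusted p = 0.0600), and the Quchi call without IRI replicate 1 or 4 or Quchi replicate 2 (adjusted p = 0.0596, 0.0567 and 0.0635). Over the 36 alternatives the adjusted p ranged from 0.00128 to 0.270 in Neiguan, 0.00116 to 0.0478 in Yanglingquan and 0.00280 to 0.0715 in Quchi, each against IRI. Against sham the Neiguan call ended without Neiguan replicate 4 or sham replicate 1 or 3 (adjusted p = 0.0673, 0.0604 and 0.0709), the Quchi call without sham replicate 3 (adjusted p = 0.0518) and the Yanglingquan call in 11 of 36 alternatives. With the mean of the Npas2 probes none of these differences from sham passed (adjusted p = 0.705 in Neiguan, 0.170 in Yanglingquan and 0.184 in Quchi).

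**Figure D2:**
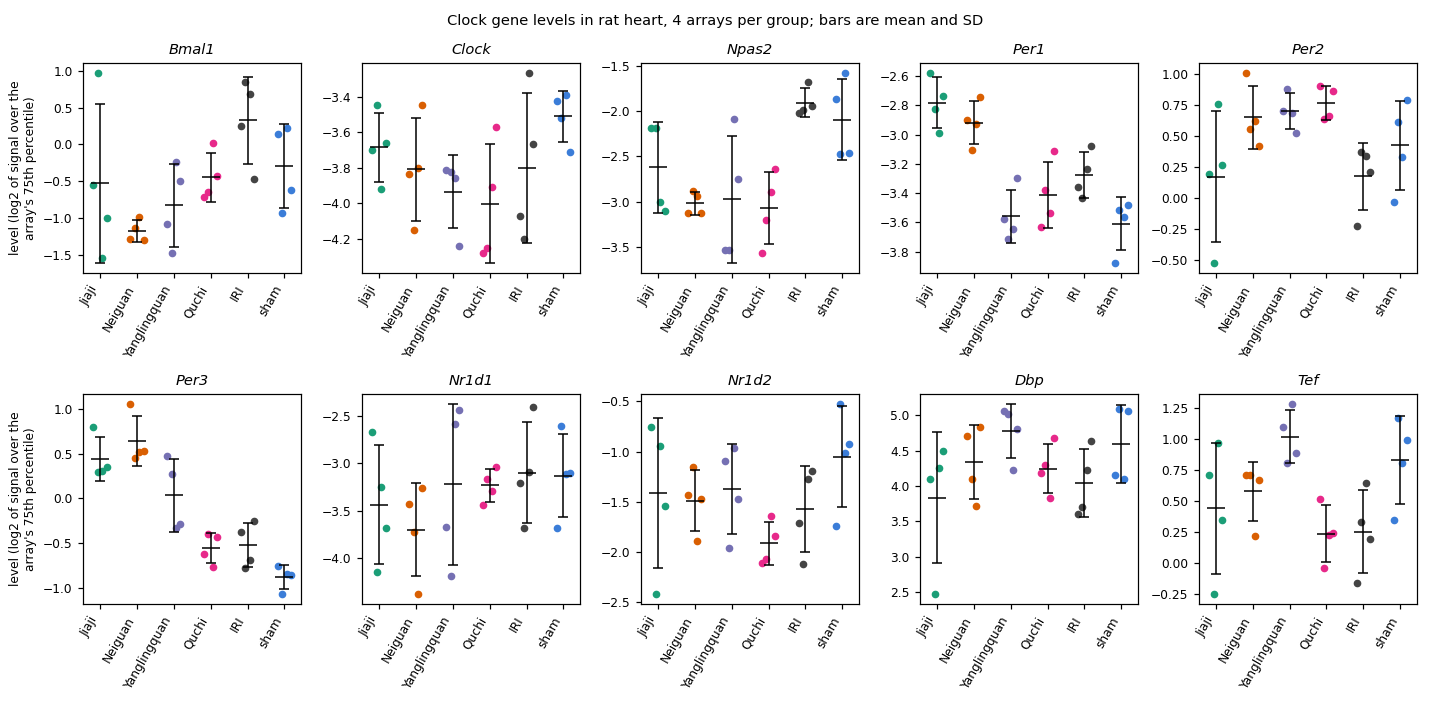
Levels of the 10 clock genes in each of 24 hearts (points; log2 of signal over the array's 75th percentile) with group mean and SD (bars), for the probe used for each gene. In Per3 the Jiaji and Neiguan hearts all sit above 0 and the Quchi, IRI and sham hearts all below it; in Npas2 the IRI hearts sit above all hearts of the acupoint groups; in Bmal1 Jiaji replicate 2, at 0.97, lies apart from its group.

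Per3, a Period gene that is thought to be dispensable for the core loop in mice, had the smallest adjusted p of the members in Jiaji and in Neiguan against IRI. Its level was 0.80, 0.29, 0.31 and 0.35 in Jiaji hearts and 1.06, 0.45, 0.52 and 0.53 in Neiguan hearts. Yanglingquan hearts had 0.47, 0.28, -0.33 and -0.29, and Quchi hearts -0.62, -0.40, -0.77 and -0.43. IRI hearts had -0.37, -0.78, -0.69 and -0.25, and sham hearts -0.76, -1.07, -0.85 and -0.86. No Jiaji or Neiguan heart overlapped the Quchi, IRI or sham hearts. Per3 rose by 1.16 ± 0.15 in Neiguan (2.24-fold, adjusted p = 5.37e-05), by 0.96 ± 0.15 in Jiaji (1.95-fold, adjusted p = 2.16e-04) and by 0.55 ± 0.15 in Yanglingquan (1.47-fold, adjusted p = 0.0206), each against IRI. Quchi did not differ from IRI beyond the error (-0.03 ± 0.15, 95% interval -0.35 to 0.28). Against sham Per3 rose by 1.52 ± 0.15 in Neiguan, 1.32 ± 0.15 in Jiaji and 0.92 ± 0.15 in Yanglingquan (adjusted p = 4.18e-07, 2.43e-06 and 5.23e-04).

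The Per3 differences also come from 1 of several probes. The probe used (A_64_P119407) did not follow the other ones within groups (r = 0.21 with A_64_P119405 and r = 0.04 with A_64_P127337, rho = 0.12 and -0.11, adjusted permutation p = 0.398 and 0.866, r = 0.20 and 0.06 without the 2 arrays farthest out), whereas those correlated with each other (r = 0.81, rho = 0.73, adjusted permutation p = 0.00119, r = 0.72 without 2 arrays). In Neiguan against IRI the other probes differed by 0.40 ± 0.19 and 0.20 ± 0.33, in Jiaji by 0.20 ± 0.19 and -0.03 ± 0.33 and in Yanglingquan by 0.15 ± 0.19 and 0.43 ± 0.33, and none passed (adjusted p of 0.228 or more). With the mean of the Per3 probes the differences from IRI were 0.59 in Neiguan, 0.38 in Jiaji and 0.38 in Yanglingquan, and no call was left (adjusted p = 0.0615, 0.218 and 0.183). At the probe used, the Jiaji and Neiguan calls held without any single array, while the Yanglingquan call ended without IRI replicate 2 or 3 or Yanglingquan replicate 1 or 2 (adjusted p = 0.0554, 0.0504, 0.0760 and 0.0597), with normexp background correction (adjusted p = 0.0613) or without the sex term (adjusted p = 0.0525). Against sham the mean of the probes ended the Jiaji and Yanglingquan calls (adjusted p = 0.151 and 0.184) but not the Neiguan call.

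**Figure D3:**
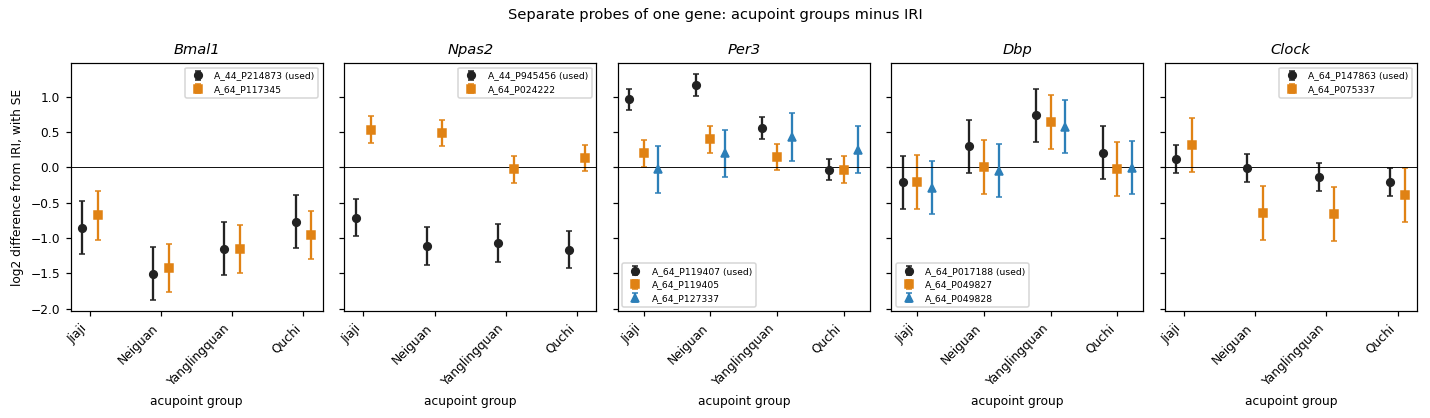
Log2 differences from IRI with SE for each probe of the 5 clock genes that have more than 1, by acupoint group; circles are the probe used. The Bmal1 probes and the Dbp probes lie together, the Npas2 probes lie on opposite sides of 0 in Jiaji, Neiguan and Quchi, and the used Per3 probe lies above the others in Jiaji and Neiguan.

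Per1, the Period gene that glucocorticoids and cyclic AMP also switch on, was measured by 1 probe. It stood at -2.58, -2.83, -2.99 and -2.73 in Jiaji hearts and at -2.90, -3.10, -2.92 and -2.75 in Neiguan hearts. Yanglingquan hearts had -3.57, -3.71, -3.65 and -3.30, and Quchi hearts -3.63, -3.38, -3.54 and -3.12. The level was -3.36, -3.44, -3.24 and -3.08 in IRI hearts and -3.88, -3.51, -3.57 and -3.48 in sham hearts. Jiaji hearts were thus above all IRI and all sham hearts, and every IRI heart was above every sham heart, as in 12.8% of all genes whose IRI and sham groups do not overlap in either direction. Per1 was higher in Jiaji than in IRI by 0.50 ± 0.14 (adjusted p = 0.0230), a call that ended under each other scaling or background setting tried (0.15 to 0.28, adjusted p from 0.111 to 0.295), with only the groups compared (adjusted p = 0.0504) and without IRI replicate 1 or 2 or Jiaji replicate 1 or 4 (adjusted p = 0.0671, 0.0877, 0.0850 and 0.0569). Neiguan, at 0.36 ± 0.14 against IRI, did not pass (adjusted p = 0.141). Against sham Per1 rose by 0.83 ± 0.14 in Jiaji and 0.69 ± 0.14 in Neiguan (adjusted p = 1.46e-04 and 0.00113), calls kept in all 36 alternatives but at 0.32 and 0.34 with normexp background correction, and the IRI minus sham difference of 0.33 ± 0.14 did not pass (adjusted p = 0.187).

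Per2, the Period gene whose loss shortens or ends rhythms in mice, did not pass in any of these comparisons. It averaged 0.17 ± 0.53 in Jiaji, 0.65 ± 0.25 in Neiguan, 0.70 ± 0.15 in Yanglingquan and 0.76 ± 0.14 in Quchi, against 0.17 ± 0.27 in IRI and 0.42 ± 0.36 in sham (SD, n = 4 each). All Neiguan, Yanglingquan and Quchi hearts lay above all IRI hearts, with differences of 0.48 ± 0.22, 0.52 ± 0.22 and 0.59 ± 0.22 (adjusted p = 0.228, 0.128 and 0.137).

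Nr1d1 and Nr1d2 encode REV-ERB alpha and beta, the repressors of Bmal1. Neither passed in any comparison with IRI or sham. Nr1d1 averaged -3.44 ± 0.63 in Jiaji, -3.70 ± 0.49 in Neiguan, -3.22 ± 0.85 in Yanglingquan and -3.23 ± 0.17 in Quchi, against -3.10 ± 0.53 in IRI and -3.13 ± 0.44 in sham (SD, n = 4 each). The spread within Yanglingquan was widest, with -2.58 and -2.43 in replicates 3 and 4, which are female, and -3.68 and -4.19 in replicates 1 and 2, which are male. Nr1d2 was lowest in Quchi, at -1.92 ± 0.22, and highest in sham, at -1.05 ± 0.51 (SD, n = 4 each), a difference of -0.87 ± 0.32 that missed the threshold (adjusted p = 0.0591) and passed without sham replicate 1 (-1.10, adjusted p = 0.0256), with median scaling (-0.94, adjusted p = 0.0206) and without Jiaji replicate 1 or 2 (adjusted p = 0.0444 and 0.0250).

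Dbp, the most studied D-box activator under clock control, had levels of 4.10, 2.47, 4.26 and 4.50 in Jiaji hearts, 4.71, 4.10, 3.72 and 4.83 in Neiguan hearts, 5.06, 5.02, 4.22 and 4.80 in Yanglingquan hearts and 4.18, 4.29, 3.83 and 4.68 in Quchi hearts. IRI hearts had 3.60, 3.69, 4.23 and 4.64, and sham hearts 4.15, 5.08, 4.09 and 5.06. All groups overlapped, and Jiaji replicate 2 was the lowest of the 24 hearts. The difference from IRI was widest in Yanglingquan, at 0.74 ± 0.37, and did not pass (adjusted p = 0.217). The 3 Dbp probes followed each other within groups with r of 0.84 to 0.99 (rho of 0.79 to 0.96, adjusted permutation p of 0.00142 or less, r of 0.72 to 0.98 without the 2 arrays farthest out).

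Tef, a D-box activator of the same family, was higher in Yanglingquan. Its level was 1.102, 0.81, 1.29 and 0.89 in Yanglingquan hearts, against -0.16, 0.33, 0.65 and 0.20 in IRI hearts and 0.35, 1.17, 0.81 and 0.998 in sham hearts. The Yanglingquan hearts were above all IRI hearts and among the sham hearts. Tef rose by 0.77 ± 0.23 in Yanglingquan against IRI (1.70-fold, adjusted p = 0.0317). This call ended with quantile normalization (0.76, adjusted p = 0.0601), normexp background correction (adjusted p = 0.0675) and the authors' values (adjusted p = 0.0672), and without IRI replicate 1, 2 or 4 or Yanglingquan replicate 1 or 3 (adjusted p = 0.106, 0.0594, 0.0637, 0.0773 and 0.0804), with a range of 0.00459 to 0.106 over the 36 alternatives. Jiaji, Neiguan and Quchi averaged 0.44 ± 0.53, 0.58 ± 0.24 and 0.24 ± 0.23 (SD, n = 4 each), and none of them passed against IRI.

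Among the 4 acupoint groups the clock genes that differed were Per1, Per3 and Tef. These 3 of 10 members passed the F test over the acupoint groups (adjusted p = 5.08e-04, 5.44e-05 and 0.0456), which 39.1% of all genes passed. Over all 6 groups Bmal1 and Npas2 passed too (adjusted p = 0.0366 and 0.00304), making 5 of 10, against 45.8% of all genes. The 6 pairs of acupoints share arrays with each other. They gave 10 calls in 60 combinations of member and pair, 2 of 10 members in every pair but Jiaji against Neiguan, which gave 0. Of all genes 29.8% and 20.9% were called in Jiaji and 20.6% and 14.5% in Neiguan, against Yanglingquan and Quchi. The share was 16.1% in Yanglingquan against Quchi and 0% in Jiaji against Neiguan. The members were thus called about as often as all genes.

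Jiaji and Neiguan stood on the higher side of the calls that included them. Per1 was higher in Jiaji than in Yanglingquan by 0.78 ± 0.14 (adjusted p = 3.90e-04) and than in Quchi by 0.63 ± 0.14 (adjusted p = 0.00445), where 29.8% and 20.9% of all genes were called. In Neiguan it was higher by 0.64 ± 0.14 and 0.50 ± 0.14 (adjusted p = 0.00337 and 0.0213), where 20.6% and 14.5% were called. The Per1 call of Jiaji against Yanglingquan ended with normexp background correction (0.23, adjusted p = 0.0596) and that of Jiaji against Quchi with only the groups compared (adjusted p = 0.0654). The Per1 call of Neiguan against Quchi was lost in 7 of 37 alternatives: with only the groups compared (adjusted p = 0.0618), within 1 scan day (0.42, adjusted p = 0.123), and without Neiguan replicate 1 or 4 or Quchi replicate 1, 2 or 3 (adjusted p = 0.0539, 0.0702, 0.0757, 0.0566 and 0.0569). Per3 was higher in Jiaji by 0.41 ± 0.15 against Yanglingquan (adjusted p = 0.0479) and 0.99 ± 0.15 against Quchi (adjusted p = 4.15e-04), and in Neiguan by 0.61 ± 0.15 and 1.19 ± 0.15 (adjusted p = 0.00908 and 4.97e-05). Yanglingquan against Quchi gave 2 members, Per3 higher by 0.59 ± 0.15 and Tef by 0.78 ± 0.23 (adjusted p = 0.0117 and 0.0227), with 16.1% of all genes called. Jiaji against Neiguan gave 0 of 10, with 0% of all genes called by limma and 1 member, Per2, at an unadjusted p under 0.05. With the mean of the Per3 probes all 5 Per3 calls among acupoints ended, at 0.00039 and 0.31 in Jiaji against Yanglingquan and Quchi (adjusted p = 0.999 and 0.219), 0.21 and 0.52 in Neiguan (adjusted p = 0.425 and 0.0557) and 0.31 in Yanglingquan against Quchi (adjusted p = 0.245), as did its F test (adjusted p = 0.113). In a fit to the 15 arrays of the second scan day alone, the Per3 call of Yanglingquan against Quchi ended (0.50, adjusted p = 0.0651). The Per3 call of Jiaji against Yanglingquan was lost in 25 of 37 alternatives, the Tef result of the F test among acupoints in 22 of 37, and the Tef call of Yanglingquan against Quchi in 4, all of them left-out arrays.

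The sexes did not differ by a called member. In females against males 0 of 10 clock genes passed in limma, where 0.209% of all genes did, and 3 had an unadjusted p under 0.05. Bmal1 and Npas2 stood higher in females by 0.48 ± 0.22 and 0.35 ± 0.15, and Per3 stood at -0.29 ± 0.09 (adjusted p = 0.361, 0.346 and 0.190). Of 50 tests of a difference between female and male effects, over 10 members and 5 contrasts, 0 passed and 1 had an unadjusted p under 0.05, Nr1d1 in Yanglingquan against IRI (2.01 ± 0.62, adjusted p = 0.423). Within Yanglingquan the females lay above the males in Bmal1, Npas2 and Nr1d1 and below them in Per3, without overlap.

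Apart from group means, some of the clock genes varied together from rat to rat. Sex was not taken away, so the differences between sexes given above, Bmal1 and Npas2 included, remain in the deviations. The part of sex in the correlations was not tested. Deviations from the group mean were correlated over the 24 arrays for the 45 pairs of members, with permutation p-values adjusted over the 45. Of these, 6 pairs passed by Pearson's r, 5 positive and 1 negative, and 13 had an unadjusted p under 0.05. Bmal1 and Dbp ran opposite to each other (r = -0.83, rho = -0.78, adjusted p = 0.0102 and 0.0108), and of the 12662 other genes measured on every array none correlated more negatively with Bmal1 than Dbp did. The reverse also held, with Bmal1 the most negative of all genes for Dbp. Bmal1 and Npas2 moved together (r = 0.71, rho = 0.80, adjusted p = 0.0102 and 0.0137). So did Per2 with Tef (r = 0.77, rho = 0.67, adjusted p = 0.0139 and 0.0243), and Tef had the highest r with Per2 of all genes, while Per2 ranked 6 for Tef. Npas2 ranked 12 for Bmal1 among all genes, and Bmal1 ranked 40 for Npas2.

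The nuclear receptor genes were in the other 3 pairs, which stood out less among all genes. Nr1d1 correlated with Nr1d2 (r = 0.74, rho = 0.70, adjusted p = 0.0102 and 0.0220), Nr1d2 ranking 64 for Nr1d1 and Nr1d1 154 for Nr1d2. Nr1d2 correlated with Tef (r = 0.78, rho = 0.73, adjusted p = 0.0102 and 0.0183), Tef ranking 67 for Nr1d2 and Nr1d2 ranking 3 for Tef. Per1 correlated with Nr1d1 (r = 0.61, rho = 0.62, adjusted p = 0.0224 and 0.0243), a relation lost with quantile normalization (r = 0.33, adjusted p = 0.334). Nr1d1 ranked 260 for Per1, and Per1 ranked 520 for Nr1d1, for which 4.11% of all genes had an r as high. Bmal1 and Nr1d1 themselves did not correlate beyond the threshold (r = -0.22). Clock and Per3 belonged to no pair that passed.

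**Figure D4:**
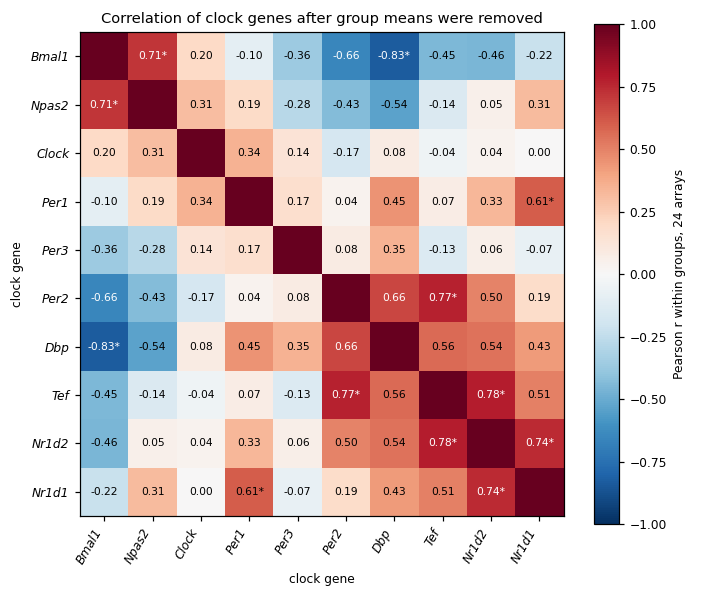
Pearson r between the 10 clock genes over 24 arrays after group means were removed; asterisks mark the 6 pairs with an adjusted permutation p under 0.05. Bmal1 and Npas2 are positive with each other and negative with Per2, Dbp and Tef, and Per2, Dbp, Tef, Nr1d2 and Nr1d1 are positive among themselves.

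Jiaji replicate 2 lay far out in several of these genes. It deviated from its group mean by 1.501 in Bmal1 and by -1.36 in Dbp, -1.01 in Nr1d2, -0.71 in Nr1d1, -0.70 in Per2 and -0.69 in Tef. Without that array r was -0.70 for Bmal1 and Dbp, 0.74 for Bmal1 and Npas2, 0.66 for Per2 and Tef, 0.71 for Nr1d1 and Nr1d2, 0.68 for Nr1d2 and Tef and 0.62 for Per1 and Nr1d1. Leaving out the 2 arrays farthest from the median gave -0.75, 0.73, 0.61, 0.79, 0.64 and 0.60 in the same order. Within the 8 arrays of the first scan day r was -0.82 for Bmal1 and Dbp and 0.69 for Bmal1 and Npas2, and within the 15 of the second day -0.85 and 0.73. Per2 with Tef gave 0.89 and 0.70 within these days, Nr1d1 with Nr1d2 0.92 and 0.67, Nr1d2 with Tef 0.67 and 0.93, and Per1 with Nr1d1 0.90 and 0.49.

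**Figure D5:**
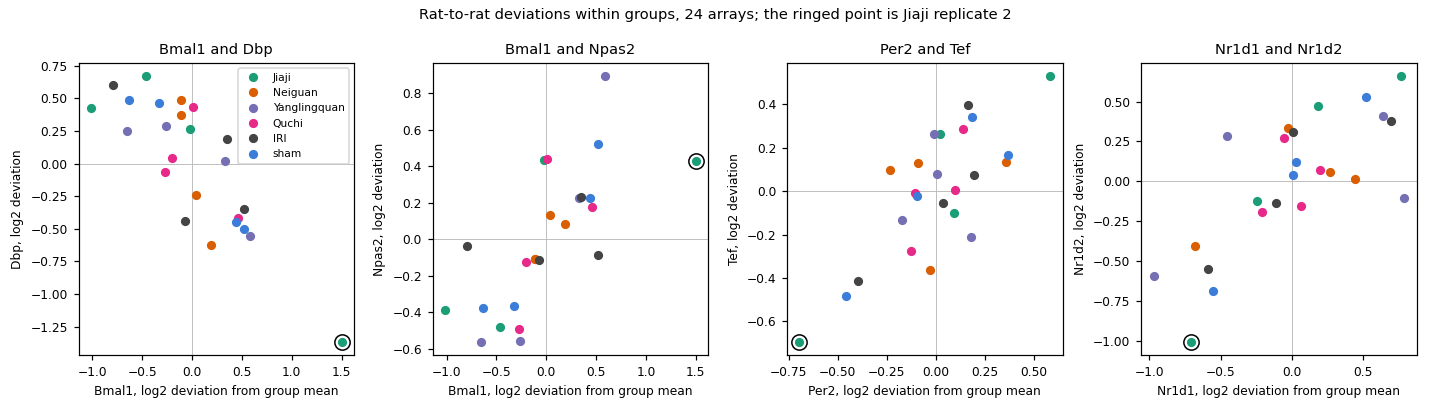
Deviation of each heart from its group mean (log2) for 4 pairs of clock genes, coloured by group, with Jiaji replicate 2 ringed. Bmal1 and Dbp slope downward over the 24 hearts (r = -0.83), and the other 3 pairs slope upward (r = 0.71, 0.77 and 0.74).

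The genes whose levels followed the members most closely over the 24 arrays, group differences included, were partly clock genes. For Bmal1 they were Fibin (r = 0.81), Npas2 (r = 0.76) and Ufd1 (r = 0.74). For Dbp they were Ciart, a clock-controlled repressor also called Chrono (r = 0.87 over 23 arrays), Fam76a (r = 0.79) and C8h15orf39 (r = 0.76). Per2 was followed by Tent5b (r = 0.72), Abcg4 (r = 0.71) and Cygb (r = 0.70). For Nr1d1 they were Ltbp3 (r = 0.81), Pcdhga7 (r = 0.81) and Vars1 (r = 0.80).

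Of 23 other genes of the clock machinery 15 could be tested. In IRI against sham 0 of 15 were called, against 5.75% of all genes. Against IRI, Jiaji had 1 higher and 1 lower, Neiguan 0 higher and 2 lower, Yanglingquan 0 higher and 1 lower, and Quchi 0 of 15, where 10.2%, 5.63%, 12.1% and 3.44% of all genes were called. Csnk1e, which encodes a kinase that marks PER proteins for breakdown, was called in 3 of them at its brightest probe, with log2 differences of -1.15 ± 0.27 in Jiaji, -1.003 ± 0.27 in Neiguan and -3.08 ± 0.28 in Yanglingquan (adjusted p = 0.00903, 0.0316 and 1.46e-06), where 1 IRI and 1 Yanglingquan array gave no value. Its other probes disagreed with each other. In Yanglingquan against IRI one was lower too, at -2.33 ± 0.40 (adjusted p = 6.26e-04, every probe tested). Another stood at 0.36 ± 0.15 (adjusted p = 0.111). Neither passed in Jiaji (adjusted p = 0.266 and 0.196) or in Neiguan (adjusted p = 0.343 and 0.640). Bmal2, a relative of Bmal1, was higher in Jiaji (0.49 ± 0.15, adjusted p = 0.0427), and Tipin was lower in Neiguan (-0.34 ± 0.10, adjusted p = 0.0470). With every probe tested, another Tipin probe missed in Neiguan against IRI (-0.23 ± 0.10, adjusted p = 0.186). It passed as lower in Neiguan against sham (-0.35 ± 0.10, adjusted p = 0.0166). Against sham, Jiaji had 2 higher and 0 lower, Neiguan 1 and 1, Yanglingquan 0 and 1, and Quchi 1 and 2. In these comparisons 24%, 19.9%, 13% and 21.1% of all genes were called. Cry2, a partner of the PER proteins in repression, was higher than in sham by 0.53 ± 0.15 in Jiaji, 0.51 ± 0.15 in Neiguan and 0.50 ± 0.15 in Quchi (adjusted p = 0.0160, 0.0249 and 0.0244). Bmal2 was higher in Jiaji (0.55 ± 0.15). Called lower were Tipin in Neiguan (-0.37 ± 0.10) and Csnk1a1 and Bhlhe40 in Quchi (-0.60 ± 0.12 and -0.95 ± 0.31). Csnk1e was lower in Yanglingquan at its brightest probe (-2.33 ± 0.26). A further probe was lower too, at -1.17 ± 0.40, and another was higher, at 0.49 ± 0.15. Both passed when every probe was tested (adjusted p = 0.0493 and 0.0270). The median difference over the 15 genes lay between -0.08 and 0.12 in the comparisons with IRI and sham, and that over all genes between -0.10 and 0.04.

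The 18 outputs of the clock known in heart or other tissues were all tested. In IRI against sham 2 were higher, the cell cycle inhibitor Cdkn1a (0.60 ± 0.13, adjusted p = 0.0103) and the mitochondrial carrier Ucp3 (1.82 ± 0.49, adjusted p = 0.0297). A second Cdkn1a probe, at 0.53 ± 0.21, did not pass there (adjusted p = 0.144, every probe tested). Of all genes 5.75% were called in that comparison. Yanglingquan against IRI had 3 higher and 0 lower, namely Tspan4, the triglyceride synthesis gene Dgat2 and the stress gene Herpud1 (0.78 ± 0.14, 0.69 ± 0.20 and 0.82 ± 0.24, adjusted p = 0.00133, 0.0259 and 0.0336). Of all genes 12.1% were called in Yanglingquan against IRI. Jiaji, Neiguan and Quchi had 0 called against IRI, where 10.2%, 5.63% and 3.44% of all genes were called. Against sham Jiaji had 3 of 18 higher and 0 lower, Neiguan 1 and 0, Yanglingquan 5 and 1, and Quchi 2 and 2. Of all genes 24%, 19.9%, 13% and 21.1% were called in these groups. Cdkn1a was higher in each at its brightest probe. Another Cdkn1a probe stood at 0.52 to 0.57 there and passed in none (adjusted p from 0.0559 to 0.0861, every probe tested).

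Of 15 genes that glucocorticoids induce, as they do Per1, 14 were tested. Yanglingquan against IRI had 2 higher, Tsc22d3 (0.39 ± 0.11, adjusted p = 0.0202) and Fkbp5 (1.09 ± 0.35, adjusted p = 0.0434), where 12.1% of all genes were called, and Jiaji, Neiguan and Quchi had 0. The median difference from IRI of these genes was 0.05 in Jiaji, 0.13 in Neiguan, 0.35 in Yanglingquan and 0.05 in Quchi, against medians over all genes of -0.01, -0.05, -0.04 and 0.02. Against sham 1 was higher in Jiaji, 3 in Neiguan, 5 in Yanglingquan and 2 in Quchi, where 1 was also lower (Sgk1). Of all genes 24%, 19.9%, 13% and 21.1% were called in these groups against sham. Cebpb was higher in each, by 0.63 ± 0.17 in Jiaji, 0.69 ± 0.17 in Neiguan, 0.58 ± 0.17 in Yanglingquan and 0.68 ± 0.17 in Quchi (adjusted p = 0.00995, 0.00619, 0.0274 and 0.00737). The median differences from sham were 0.25, 0.29, 0.50 and 0.36 in the same order, against medians over all genes of -0.09, -0.10, -0.06 and 0.04.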

How the data were processed

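Agilent Feature Extraction (11.0.1.1 per the file headers, 10.7.3.1 per the submitters' processing notes) gave the deposited spot intensity values, background-subtracted within each array per the file headers, and the spot flags. The authors' deposited log2 table, an alternative here, has columns with 1 common median of 7.20 that follow the arrays' own log2 signals (lowest r = 0.997); the tool that made it is not named in the labels or files. Control spots (1377) and outlier spots (8733 over all arrays) were left out, and spots of a probe averaged. The filter kept 25149 probes, those that some group had well above background on each of its arrays. A gene took its brightest passing probe, and 18005 of 30367 probes had a name through RefSeq. R 4.3.3 with limma 3.58.1 fitted group and sex over all 24 arrays, adjusted over 12894 genes by Benjamini-Hochberg at 0.05; all tests are two-sided and ± is the SE unless SD is written. Where outlier spots left a gene without a value on an array, the fit used the others (231 genes). Correlations used 100000 permutations within groups (numpy 2.4.6). The fit was tested on simulated data. Members and gene lists were chosen with earlier results of these data known; the 3 called genes of smallest p per list and comparison are named. Alternatives were the normalization, background, probe filter, choice of probe, covariates, scan as a random block and arrays left out. The number of arrays limits the precision.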

Additional observations from a re-analysis of the deposited data

Results flagged for a closer look

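In 4 of 60 combinations of member and group, 1 heart lay far from the other 3 by Dixon's test of the gap to its nearest neighbour (95% critical value). Chance alone gives about 1 in 20. Per3 was highest in Jiaji replicate 1, at 0.80 against 0.29, 0.31 and 0.35 in the other Jiaji hearts, and in Neiguan replicate 1, at 1.06 against 0.45, 0.52 and 0.53. Clock was lowest in Yanglingquan replicate 4, at -4.24, where the others had -3.85, -3.83 and -3.81. Tef was lowest in Neiguan replicate 3, at 0.22, where the others had 0.67, 0.71 and 0.72. Leaving out these Per3 hearts did not end a call of Per3 against IRI or sham.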

How the results depend on the processing

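Counts of called clock genes changed as follows. With the mean of a gene's probes, Jiaji against IRI gave 1 (main 2), Neiguan against IRI 1 (main 3), Quchi against IRI 0 (main 1), Jiaji and Yanglingquan against sham 1 each (main 2 each) and the acupoint pairs 6 (main 10), and the uncalled Npas2 difference of Jiaji from sham was 0.13 in place of -0.52. With only the groups compared, Jiaji against IRI and Yanglingquan against sham gave 1 each. Yanglingquan against IRI (main 4) gave 2 with quantile normalization, 1 with normexp background, 2 with the authors' values and 2 without the sex term. Yanglingquan against sham gave 1 in the first, second and last of these settings. Quchi against sham (main 1) gave 2 with quantile normalization, 4 with median scaling and 2 with the authors' values. Median scaling gave 6 in Jiaji against sham and 5 in the F test among acupoints (main 3); it moved the median of all genes to -0.36 in Jiaji against sham and -0.23 in Jiaji against IRI.

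Leaving out single arrays gave 1 to 3 calls in Jiaji and in Neiguan against IRI, 1 to 4 in Yanglingquan and 0 to 1 in Quchi. Against sham it gave 2 in Jiaji, 2 to 4 in Neiguan, 1 to 2 in Yanglingquan and 0 to 3 in Quchi. The F tests gave 3 to 6 over all groups and 2 to 5 among acupoints, and the acupoint pairs 7 to 13. With the replicate number as a block the counts against IRI were 2, 3, 3 and 1 in Jiaji, Neiguan, Yanglingquan and Quchi, against sham 2, 3, 2 and 1, and 0 for IRI against sham. The F tests then gave 4 over all groups (main 5) and 2 among acupoints. Same-numbered arrays of different groups correlated in their deviations with r from -0.39 to 0.37 (median 0.08 over 60 pairs). Arrays of other numbers gave r from -0.46 to 0.35 (median -0.02 over 180 pairs). The ranges are alike, but such values cannot show whether the numbers pair the rats. The files name no slide, so arrays of 1 scan time were taken as a random block. Its correlation was estimated from the split of Quchi over 2 scans and was -0.10, below 0, which lowers the errors; no call was lost, and the counts were 1 in IRI against sham, 4 in Jiaji and 2 in Quchi against IRI and 5 in Quchi against sham.

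Over the whole table the called genes numbered 852 with quantile normalization and 669 with normexp in Yanglingquan against IRI (main 1563), 2369 with median scaling in Jiaji against IRI (main 1314), 6864 in Jiaji against sham (main 3096), 4327 in Neiguan against sham (main 2565) and 32 with only the groups compared in Quchi against IRI (main 444). Such fits also gave 578 in Jiaji against Quchi (main 2701), 2301 in Jiaji against Yanglingquan (main 3847), 1114 in Yanglingquan against Quchi (main 2075), 788 in Yanglingquan against sham (main 1677) and 1790 in Quchi against sham (main 2720). Normexp gave 1853 in Jiaji and 1634 in Neiguan against Yanglingquan (main 3847 and 2659), median scaling 6169 in Jiaji against Yanglingquan, and contrasts within 1 scan day 829 in Jiaji and 652 in Neiguan against Quchi (main 2701 and 1873). Testing every probe, which tests more features, raised all these counts. So did the scan block in each comparison between groups, for example to 1636 in IRI against sham (main 742), 2526 in Jiaji, 1804 in Neiguan, 3043 in Yanglingquan and 1324 in Quchi against IRI (main 1314, 726, 1563 and 444) and 168 in Jiaji against Neiguan (main 0). The contrasts within 1 scan day and the values without Jiaji replicate 2 in the correlations were chosen after seeing the data.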
